A study of Mus musculus with 5 samples.

Results

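The genes of MHC class II presentation were followed across the cell types of the atherosclerotic mouse aortic arch: the class II chains H2-Aa, H2-Ab1 and H2-Eb1, the invariant chain gene Cd74, the peptide editor genes H2-DMa, H2-DMb1, H2-DMb2, H2-Oa and H2-Ob, and Ciita. They were chosen by name, and all 10 were among the 26189 gene columns of the deposited tables. The cells came from female mice of C57BL/6J (the pool labelled wild-type) and of C57BL/6N-Saa3tm1.1(KOMP)Vlcg/MbpMmucd (the pool labelled Saa3-/-), labelled 12 weeks of age and named littermates in the design text. All mice of both pools had received 1 injection of an AAV8 vector that carries the gain-of-function mPCSK9 D377Y under the liver-directed hAAT promoter and had eaten a Western diet for 18 weeks, so neither pool is an untreated control. The label of 12 weeks is shorter than the diet, so it cannot be the age at harvest. As labelled, the pools also differ in substrain, which cannot be told apart from genotype and sits uneasily with the word littermates. Live CD45+ cells of the arch were sorted, tagged by pool and captured together in 1 BD Rhapsody library, a microwell method in which each captured mRNA molecule is counted once. The labels do not give the number of mice in a pool. With 1 pool per genotype there was no replicate and no test: every interval below is a 95% interval that covers counting error only, and a difference between pools is a difference between these pools, not between genotypes. The 4 bone-marrow-derived macrophage samples of the series were not analysed here.

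Class II molecules are heterodimers that show peptides from endosomes to CD4+ T cells. Their alpha and beta chains are assembled on the invariant chain, and H2-DM then removes the invariant chain fragment and exchanges peptides, while H2-O restrains H2-DM. Ciita is the transcriptional coactivator known to switch on most of the group. It does not bind DNA itself but is recruited by factors sitting on a shared promoter module, the S, X and Y boxes. Dendritic cells, B cells and macrophages are the cells known for this pathway, and in mice of C57BL/6 origin the I-E alpha chain is missing, so that the H2-Eb1 product has no partner on the cell surface.

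Of the 10 genes, 8 lie together on mouse chromosome 17 within 224 kb (GRCm38, GENCODE M21; first base 34092340, last base 34316674), and Ciita lies on chromosome 16 (10480059 to 10528418, plus strand). The promoter table of RefSeq (GRCm38.p6) held windows for 7 of the genes. The letters TGATTGG, the core of the Y box, stood within the 250 bases before the start in 6 of these 7 genes, against 7.23% of all 32851 windows, and always on the coding strand. The letters ACNGATG, the right part of the X box, stood in 5 of the 7, against 8.31% of all windows. Both strands were searched, and the motifs share no bases in any of these genes. In H2-DMb1, H2-DMb2 and H2-Eb1 both lay on the coding strand within 60 bases of each other, with 21, 21 and 20 bases between them, and X before Y within 60 bases was found in 0.0487% of all windows. Neither motif was found in the H2-DMa windows, and a match is a description of letters, not a shown binding site. The following 4 stretches come from genes whose levels by cell type differed. They hold no annotated exon base of their own gene, and exons of other genes were not checked. As printed, 2 of them carry both motifs and 2 the Y box core alone. The X box letters of H2-Aa lie outside its stretch, 232 bases before the start and on the other strand. The letters searched are only a part of the X box, so a stretch without a match is not shown to lack an X box. The stretches read 5′ to 3′ on the coding strand, and capitals mark the 2 motifs.
H2-Eb1, chr17:34305717-34305866, plus strand: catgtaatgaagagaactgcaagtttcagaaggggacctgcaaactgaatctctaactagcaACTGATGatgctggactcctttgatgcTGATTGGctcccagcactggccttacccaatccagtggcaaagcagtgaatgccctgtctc
H2-DMb2, chr17:34145099-34145235, plus strand: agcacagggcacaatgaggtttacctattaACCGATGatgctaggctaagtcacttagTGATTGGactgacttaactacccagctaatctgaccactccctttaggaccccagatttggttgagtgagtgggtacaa
H2-Aa, chr17:34287824-34287973, minus strand: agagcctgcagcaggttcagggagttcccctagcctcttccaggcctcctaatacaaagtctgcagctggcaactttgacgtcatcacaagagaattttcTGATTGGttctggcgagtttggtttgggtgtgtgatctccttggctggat
H2-Ob, chr17:34238755-34238902, plus strand: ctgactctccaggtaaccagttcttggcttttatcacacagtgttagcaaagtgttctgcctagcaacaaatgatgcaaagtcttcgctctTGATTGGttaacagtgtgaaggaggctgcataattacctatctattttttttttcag
The H2-DMb1 motifs lie in sequence that GENCODE annotates as exon of that gene and are not printed. Aligned on the Y box core without gaps, H2-DMb1 and H2-DMb2 had the same base at 83 of 97 positions.

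Of 1743 deposited cells, 1656 had at most 25% of their molecules from mt- genes and were kept, 833 in the pool labelled wild-type and 823 in the pool labelled Saa3-/-, with no barcode in both. A kept cell held a median of 6415 molecules in the first pool and 4698 in the second. Saa3, the targeted gene, was not lower in the pool labelled Saa3-/- as a summed level: it stood at 148 molecules per 1000000 in the pool labelled wild-type and 242 in the pool labelled Saa3-/-. There 1124 of 1268 molecules lay in 2 cells, against 382 of 1079 in the pool labelled wild-type, and 114 cells held a molecule, against 170. Cells were assigned to 15 types by fixed marker lists that held none of the 10 genes, although marker and member levels can vary together across cells. The gates for macrophages (200 cells in the pool labelled wild-type, 139 in the pool labelled Saa3-/-), conventional dendritic cells (48 and 34) and B cells (51 and 111) had genes of their own marker list among the 10 genes that set them apart most: C1qa, C1qc and C1qb for macrophages, Clec9a, Cd209a and Flt3 for dendritic cells, and Cd79a, Ms4a1 and Bank1 for B cells. Cells were gated on these genes, so their place there follows from the gating and is no separate check of cell identity. T cells, cells of the fibroblast marker gate and smooth muscle cells served as the types that should lack the pathway. The fibroblast marker gate held Dcn, Lum and Col1a1 of its own list among its 10 leading genes, but also the cartilage and bone genes Col2a1, Ibsp, Chad and Col10a1, so that it is named here by its markers only. Fibroblasts and smooth muscle cells are CD45-negative types that a CD45 sort should not hold. Levels are molecules summed over the cells of a gate and pool, per 1000000 molecules of those cells (CPM).

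Conventional dendritic cells held the highest level of the summed 10 genes, 66278 CPM in the pool labelled wild-type and 66795 in the pool labelled Saa3-/-, and macrophages (39338 and 37933) and B cells (33090 and 36621) followed. That is 6.63% and 6.68% of all molecules in dendritic cells. Among the 8 gates with at least 20 cells in each pool, monocytes came next with 23373 and 13389 CPM. Smaller gates are outside this order, such as the 7 plasma cells of the pool labelled wild-type at 30313 CPM and the 2 plasmacytoid dendritic cells of each pool at 28382 and 14801. The pool values of these 4 types did not overlap with those of the next type in the order. Cells of the fibroblast marker gate, smooth muscle cells, thymocytes and T cells lay between 2549 and 4901 CPM, and their pool values overlapped from one to the next. In T cells a Cd74 molecule was found in 97.9% and 98.8% of cells, so the share of cells with a molecule marks no expression for the abundant members, and the T cell level is the background against which the others are read. At least 2-fold above T cells in both pools were 8 of the 9 members with enough molecules in macrophages, against 12.6% of 9001 genes. A gene counted here when it had at least 50 molecules over the groups compared.

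**Figure D1:**
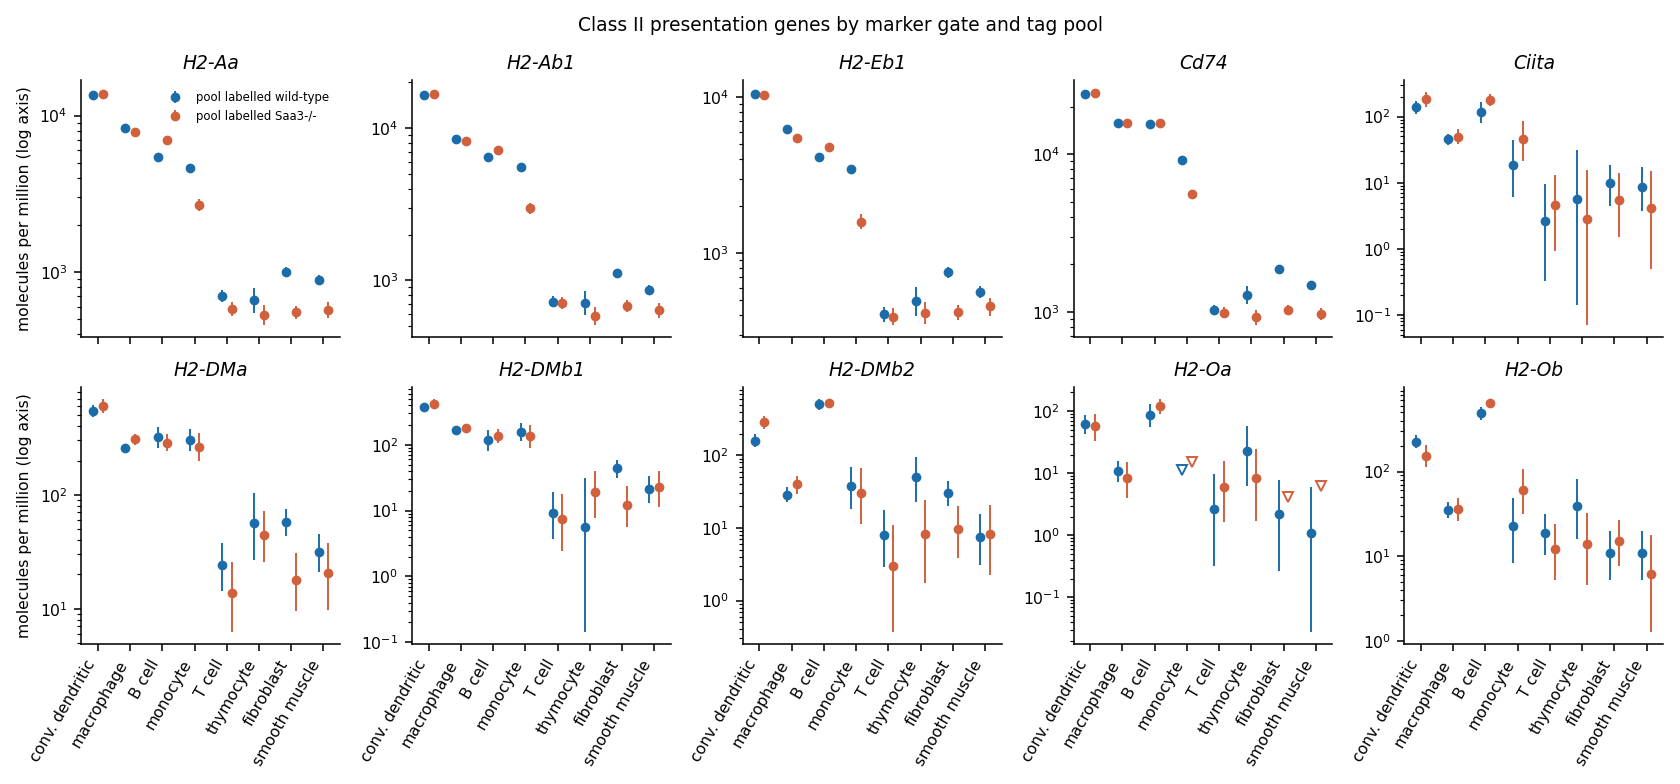
Level of each of the 10 genes in CPM (log axis) in 8 marker gates and both tag pools. Bars are exact Poisson 95% intervals, and open triangles stand at the level of 3 molecules where none was counted. The class II chains and Cd74 are highest in dendritic cells, whereas H2-DMb2, H2-Oa and H2-Ob are highest in B cells.

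The class II chains followed 1 order. H2-Ab1, the I-A beta chain gene, stood at 16624 CPM in dendritic cells of the pool labelled wild-type and 16867 in those of the pool labelled Saa3-/-, at 8435 and 8265 in macrophages, at 6481 and 7203 in B cells and at 723 and 708 in T cells. H2-Aa, which encodes the I-A alpha chain, stood at 13452 and 13743 CPM in dendritic cells, at 8304 and 7873 in macrophages and at 5448 and 6951 in B cells. For H2-Eb1, the I-E beta chain gene, the values were 10510 and 10238 in dendritic cells, 6201 and 5504 in macrophages and 4103 and 4753 in B cells. For all 3 chains dendritic cells were highest in both pools, but only by 1.62- to 2.04-fold over macrophages. H2-Ab1 was 1.97-fold higher in one pool and 2.04-fold in the other, just short of the rule of 2-fold in both pools. Over B cells the excess was larger, 1.98- to 2.56-fold, and passed the rule for H2-Ab1 and H2-Eb1. Both pools placed macrophages above B cells for each chain, by 1.13- to 1.52-fold, short of the rule.

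Cd74, whose product is the invariant chain that holds new class II dimers and leads them to endosomes, set macrophages and B cells level. It lies outside the cluster, on chromosome 18 (60803848 to 60812652, plus strand). Dendritic cells held 24184 and 24245 CPM, macrophages 15850 and 15670, and B cells 15418 and 15821, so the pools of the last 2 types overlapped. Monocytes held 9131 and 5605. Among the molecules of Cd74 and the 3 chains together, Cd74 made up 49.0% and 45.6% in B cells, 40.9% and 42.0% in macrophages and 37.3% and 37.2% in dendritic cells. B cells thus carried more Cd74 relative to the chains than either myeloid type in both pools.

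Ciita, the coactivator of the group, was sparse. It was counted with 112 and 60 molecules in macrophages (45.7 and 49.8 CPM), 77 and 58 in dendritic cells (139 and 182 CPM) and 32 and 83 in B cells (118 and 179 CPM). In T cells it stood at 2.67 and 4.54 CPM. Ciita was thus 3.04- and 3.67-fold higher in dendritic cells than in macrophages, and 2.60- and 3.58-fold higher in B cells. Dendritic cells and B cells did not differ in it beyond the spread of the pools. By the 2-fold rule B cells thus held a higher level of Ciita than macrophages. The 3 chains were lower in B cells by only 1.13- to 1.52-fold, short of that rule. Per 1000 molecules of the chains and Cd74, Ciita had 1.18 and 1.33 molecules in macrophages, 2.14 and 2.80 in dendritic cells and 3.74 and 5.15 in B cells.

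The peptide editors divided the 3 types more sharply than the chains did. H2-DMb1 and H2-DMb2 encode alternative beta chains of H2-DM and were used in opposite proportion. In B cells H2-DMb2 stood at 507 and 528 CPM and H2-DMb1 at 118 and 138. In macrophages the order was turned, with H2-DMb2 at 29.0 and 39.8 CPM and H2-DMb1 at 168 and 182. H2-DMb1 made up 85.3% (exact binomial 95% interval 81.8 to 88.3) and 82.0% (76.9 to 86.4) of the molecules of both genes in macrophages, but 18.8% (13.2 to 25.5) and 20.7% (16.3 to 25.7) in B cells. Dendritic cells lay between, at 70.2% (64.7 to 75.4) and 59.1% (52.4 to 65.6), and monocytes near macrophages, at 80.8% and 81.8%. The level of H2-DMb2 was 17.5- and 13.1-fold higher in B cells than in macrophages, whereas H2-DMb1 was 1.41- and 1.31-fold lower. The transcripts of the pair share 22.7% of the 50-base stretches of H2-DMb1, and how reads from those stretches were counted is not given in the sources used here, so the split between the genes is uncertain. H2-DMa, which encodes the common alpha chain, differed less: 544 and 601 CPM in dendritic cells, 260 and 306 in macrophages, 320 and 287 in B cells and 306 and 265 in monocytes.

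H2-Oa and H2-Ob encode the chains of H2-O, the inhibitor of H2-DM. H2-Ob stood at 489 and 640 CPM in B cells, at 225 and 154 in dendritic cells, at 35.1 and 35.7 in macrophages and at 18.7 and 12.1 in T cells. It was 13.9- and 17.8-fold higher in B cells than in macrophages, and 2.17- and 4.12-fold higher than in dendritic cells. H2-Oa followed with 88.2 and 121 CPM in B cells, 61.3 and 56.6 in dendritic cells and 11.0 and 8.30 in macrophages. No H2-Oa molecule was counted in monocytes, where 3 molecules would be 11.3 and 15.3 CPM. For 100 molecules of the 3 H2-DM genes there were 61.1 and 79.9 of H2-O in B cells, 26.5 and 16.1 in dendritic cells and 10.1 and 8.33 in macrophages. The low macrophage values of H2-Ob were 1.82- and 2.81-fold those of T cells, short of the 2-fold rule, which they passed with clusters or TMM scaling. H2-Oa had only 27 and 10 molecules in macrophages. With each cell thinned to 2000 molecules, 6.12% and 5.07% of macrophages held an H2-Ob molecule. The shares were 0.719% and 3.18% in T cells and 58.0% and 67.0% in B cells. Unthinned, those shares were 20.5% and 18.7%, 8.45% and 5.00%, and 86.3% and 81.1%, at median depths of 9924.5 and 6892, 4615.5 and 3933, and 3699 and 3313 molecules. All 8 B cell markers were counted in macrophages too, at a summed 257 and 198 CPM against 5860 and 6718 in B cells, and their part in the H2-O counts was not tested.

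**Figure D2:**
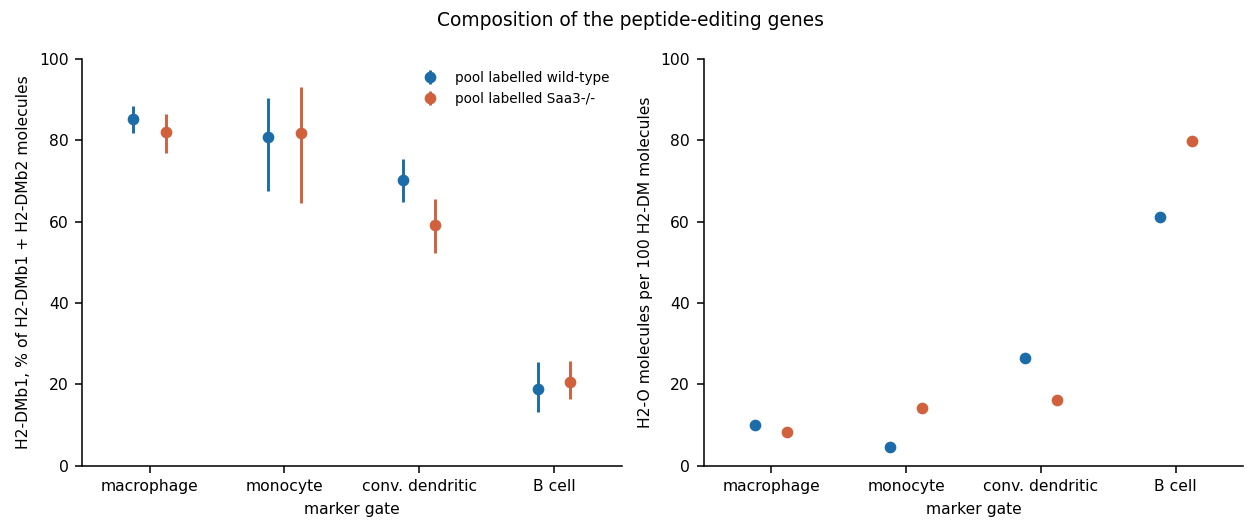
Left, H2-DMb1 as a percentage of the H2-DMb1 and H2-DMb2 molecules in 4 marker gates and both tag pools, with exact binomial 95% intervals. Right, molecules of H2-Oa and H2-Ob per 100 molecules of the 3 H2-DM genes. B cells lie apart, near 20% H2-DMb1 and at 61.1 and 79.9 H2-O molecules.

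By the rule of at least 2-fold in both pools, 5 of the 10 members were higher in dendritic cells than in macrophages (H2-DMb1, H2-DMb2, H2-Oa, H2-Ob and Ciita), against 3.62% of 8255 genes, and none was lower, against 6.95%. In B cells 4 were higher than in macrophages (H2-DMb2, H2-Oa, H2-Ob and Ciita), against 9.02% of 8301 genes, and none was lower, against 11.0% of those genes. Between dendritic cells and B cells, 3 were higher in dendritic cells (H2-Ab1, H2-Eb1 and H2-DMb1), against 7.78% of 5181 genes, and 1, H2-Ob, was lower, against 8.09%. The chains and Cd74 thus differed by less than 2-fold between most pairs of these types, and the calls lay mainly among the editors and Ciita. When single macrophages and dendritic cells that also passed a second marker list were left out, H2-Ab1 and H2-DMa passed the rule as well, and 7 members were called. With clusters in place of gates H2-DMb1 fell short, and 4 were called.

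Single macrophages fell into 2 ranges of the summed genes. Per 10000 molecules of a cell, the members took up a median of 398 molecules in macrophages of the pool labelled wild-type and 322 in those of the pool labelled Saa3-/-, with lower quartiles of 61.2 and 51.4. In the pool labelled wild-type 57 of 200 macrophages had under 100 molecules, 15 had 100 to 200 and 128 had at least 200. In the pool labelled Saa3-/- the counts were 50, 6 and 83 of 139. These bounds were set after the values were seen. The share under 100 was 28.5% (exact binomial 95% interval 22.4 to 35.3) in the first pool and 36.0% (28.0 to 44.5) in the second. No more than 2 of the dendritic cells or B cells of a pool lay under 100, with medians of 719 and 721 for dendritic cells and 365 and 362 for B cells. T cells had medians of 29.2 and 26.4, and 32 of 200 and 24 of 139 macrophages lay at or below 40.2, the 90th percentile of T cells. The sum did not follow depth in macrophages (Spearman rho -0.01 and 0.05 over 200 and 139 cells). With the macrophages that passed only 1 marker list, 54 of 161 and 48 of 116 still lay under 100.

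**Figure D3:**
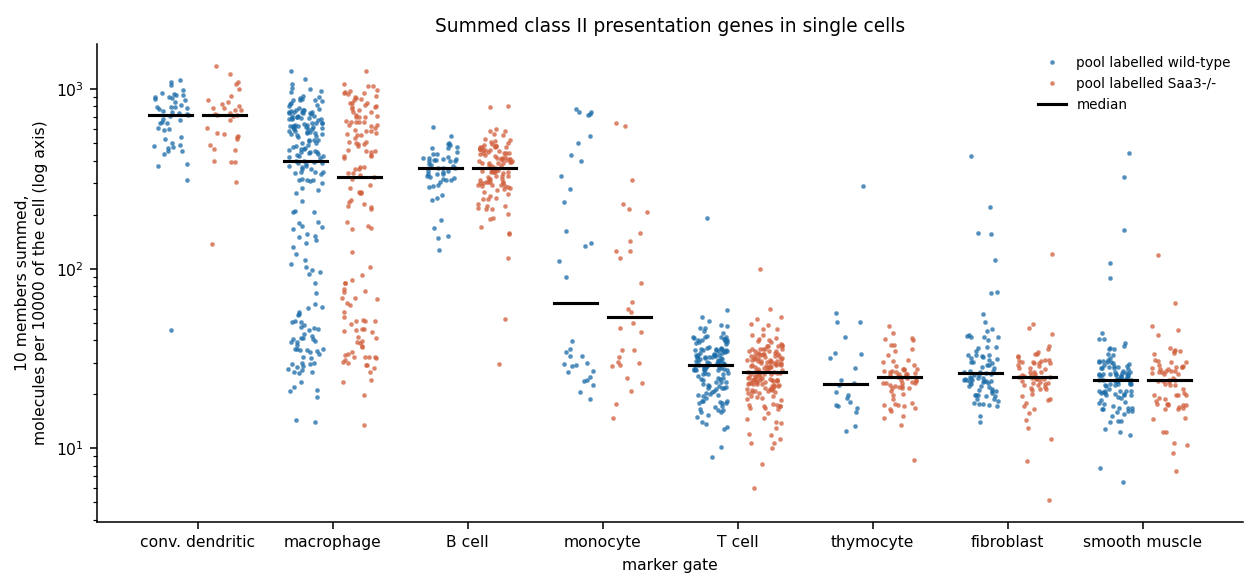
Molecules of the 10 genes per 10000 molecules of each cell (log axis), for every cell of 8 marker gates in both tag pools, with the median of each group as a black line. Dendritic cells and B cells form 1 band, macrophages spread over 2 ranges with few cells between 100 and 200, monocytes spread widely, and the other gates lie mostly under 100.

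Across single macrophages Cd74 and the 3 chains moved together. Spearman's rho of each with the sum of the other members was 0.94 to 0.96 in both pools, for H2-DMa 0.59 and 0.60, for H2-DMb1 0.59 and 0.53 and for Ciita 0.33 and 0.39. H2-Ob (0.02 and 0.22), H2-Oa (-0.05 and 0.00) and H2-DMb2 (0.08 and 0.25) showed little of it, at the few molecules they had. In dendritic cells the corresponding values were 0.87 and 0.82 for Cd74 and 0.78 to 0.83 for the chains, over 48 and 34 cells. In B cells they were 0.55 and 0.72 for Cd74 and 0.38 to 0.70 for the chains, over 51 and 111 cells. For Ciita they were 0.21 and -0.32 in dendritic cells and 0.03 and 0.05 in B cells. Ciita had only 77 and 58 molecules in those dendritic cells and 32 and 83 in those B cells, so no contrast with macrophages is drawn. Among the 4825 other genes found in at least 20% of macrophages of each pool, Nup210, a nuclear pore gene, tracked the sum best (0.60 and 0.64). Ccr2, a monocyte chemokine receptor gene that is also a marker of the monocyte gate (0.46 and 0.48), and Tmem176a (0.47 and 0.46), Plbd1 (0.48 and 0.44) and Tmem176b (0.40 and 0.46) came next. Arid5b, Ankrd39, Ctdspl, H2-K1 and Fcgr2b completed the 10, at 0.31 to 0.45. The 5 genes at the other end, named after their values were seen, were Cd9, a lipid-laden-type marker (-0.33 and -0.36), Anxa5 (-0.36 and -0.30), Stab1 (-0.37 and -0.27), Igf1 (-0.20 and -0.42) and Akr1a1 (-0.24 and -0.37). As whole lists, the monocyte markers had 0.43 in both pools, the dendritic cell markers 0.35 and 0.19 and the macrophage markers -0.10 in both. These coefficients describe cells of 1 library, and the part of monocyte or dendritic cell RNA in the spread of the members was not tested.

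Macrophage subsets differed in the level of the group. Inflammatory-type macrophages, marked by Il1b, Cxcl2 and chemokine genes (21 and 29 cells), held 45567 and 52339 CPM of the summed genes. Resident-type macrophages, marked by Lyve1 and Folr2 (50 and 27 cells), held 32293 and 35757, and lipid-laden-type macrophages, marked by Trem2 and Gpnmb (17 and 22 cells), held 15993 and 21652. By CPM, lipid-laden-type cells were thus lowest in both pools, 2.85- and 2.42-fold below the inflammatory type and 2.02- and 1.65-fold below the resident type. By mean molecules per cell, not scaled for depth, the order against the resident type held only in the pool labelled wild-type. Lipid-laden-type cells held a mean of 263 and 294 member molecules, resident-type cells 379 and 254, and inflammatory-type cells 692 and 469. Per 10000 molecules of a cell, the order held in both pools, with medians of 98.3 and 128 in lipid-laden-type, 126 and 266 in resident-type and 398 and 556 in inflammatory-type cells. Median depths were 16989 and 10631.5 molecules in lipid-laden-type and 9391.5 and 5887 in resident-type cells. The 5 leading cells held 68.63% and 60.01% of member molecules in lipid-laden-type and 41.61% and 58.30% in resident-type cells. In lipid-laden-type cells, 5 of the 6 members with enough molecules were at least 2-fold below the inflammatory type in both pools. They were H2-Aa, H2-Ab1, H2-Eb1, H2-DMb1 and Cd74, and the share among 3903 genes was 4.00%. Against the resident type 1 of 8 was at least 2-fold lower in both pools, H2-Eb1, against 4.97% of 4447 genes. H2-Eb1 also showed the widest gap to the inflammatory type, 1854 against 7295 CPM in the pool labelled wild-type and 2455 against 8081 in the pool labelled Saa3-/-. Each subset held cells of both ranges: under 100 molecules per 10000 lay 9 of 17 and 11 of 22 lipid-laden-type cells, 24 of 50 and 13 of 27 resident-type cells, and 2 of 21 and 5 of 29 inflammatory-type cells. Between pools, the summed level was higher in the pool labelled Saa3-/- in all 3 subsets, by a log2 ratio of 0.15 for the resident, 0.44 for the lipid-laden and 0.20 for the inflammatory type. In the 112 and 61 macrophages of no subset it was lower, by a log2 ratio of -0.16.

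Within the dendritic cell gate the groups were small. The summed genes stood at 66427 and 72740 CPM in cDC1, the cross-presenting subset (19 and 6 cells), and at 72670 and 80020 in cDC2 (8 and 8 cells). Migratory dendritic cells, marked by Ccr7 and Fscn1, held 56334 and 63563 (8 and 3 cells). Ciita, which is known to fall when dendritic cells mature, had 3 and 9 molecules in the migratory cells, too few to place them.

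Between the pools, no member reached a 2-fold difference in macrophages, dendritic cells or B cells. In macrophages, of the 9 members with at least 50 molecules, 0 were past it, against 1.86% of 7594 genes. The log2 ratio, pool labelled Saa3-/- over pool labelled wild-type, of the summed genes was -0.05 (95% interval -0.07 to -0.04). H2-Eb1 had the lowest ratio among those 9, -0.17 (-0.21 to -0.13), and H2-DMb2 the highest, 0.46 (-0.10 to 1.01). The median over the 9 was 0.03, beside 0.03 over all genes. With macrophages that passed only 1 marker list the summed ratio was -0.19, and with clusters -0.21. Variation between mice could not be measured.

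In dendritic cells 0 of 10 members were past the rule, against 5.12% of 3122 genes, and the summed ratio was 0.01 (-0.01 to 0.04). With clusters in place of gates the summed ratio was -0.16. H2-DMb2 came closest, with 89 molecules (160 CPM) in the pool labelled wild-type and 92 (289 CPM) in the pool labelled Saa3-/-, a log2 ratio of 0.85 (0.42 to 1.29). It passed the rule, as 1 of 9 members, at 1.03 with a gate margin of 0.5 and at 1.53 with cells that passed only 1 marker list. Of those 92 molecules, 35 lay in 3 migratory dendritic cells. H2-Ob had a log2 ratio of -0.54 (-1.05 to -0.06), from 225 to 154 CPM. In B cells 0 of 10 were past the rule, against 3.83% of 2817 genes, and 9 of 10 had a ratio above 0, with a median of 0.22 beside 0.02 over all genes. The summed ratio was 0.15 (0.11 to 0.18), H2-Aa stood at 0.35 (0.26 to 0.44) and Ciita at 0.59 (0.00 to 1.24). The B cell ratio was -0.082 without the cells that passed a second list and 0.035 with each cell given the same weight. The macrophage markers in the B cell gate summed to 2735 CPM in the pool labelled wild-type and 1489 in the pool labelled Saa3-/-, and their part in it was not tested.

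**Figure D4:**
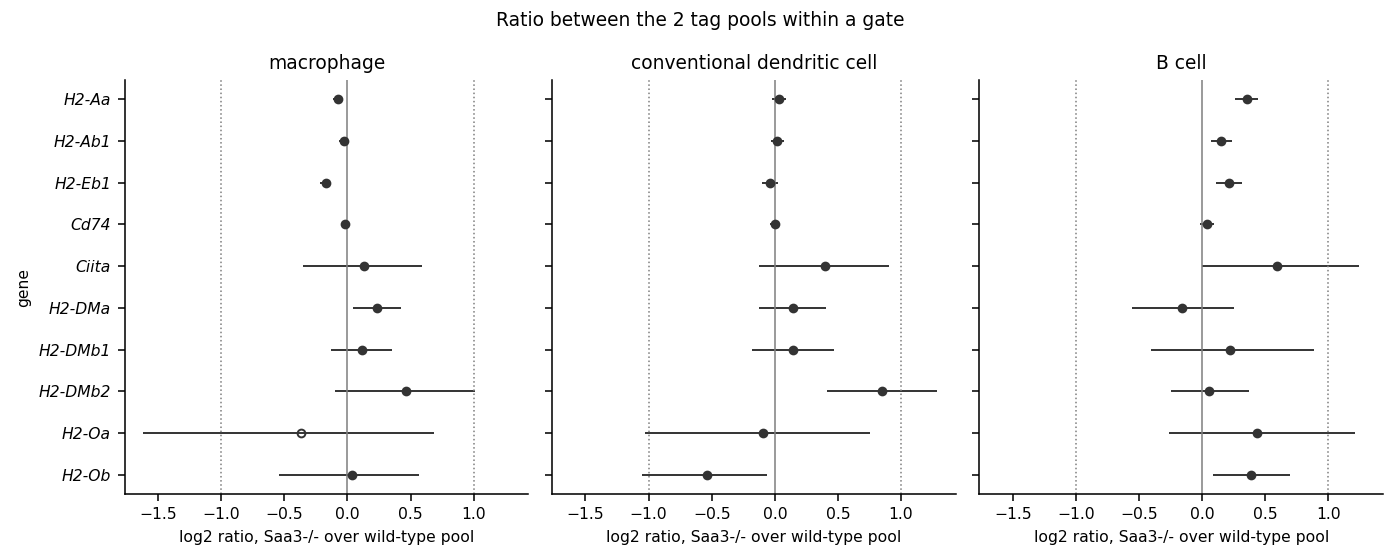
Log2 ratio of the level in the pool labelled Saa3-/- over that in the pool labelled wild-type for each gene in 3 marker gates, with exact conditional binomial 95% intervals. Dotted lines mark 2-fold, and the open point had fewer than 50 molecules. All points lie within 2-fold.

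Monocytes and the fibroblast marker gate showed larger ratios. The summed genes stood at 23373 against 13389 CPM in monocytes, a log2 ratio of -0.80 (-0.87 to -0.74), and 1 of 6 members was past the rule, H2-Eb1 at -1.12, against 4.54% of 1762 genes. In each pool 5 of the 34 and 30 monocytes held 51.0% and 63.1% of those molecules. Macrophage markers in the monocyte gate summed to 2350 and 1593 CPM, and their part in the ratio was not tested. The medians over single monocytes were 64.6 and 53.7 per 10000, and 17 of 34 and 12 of 30 lay at or below 40.2, the 90th percentile of T cells. With clusters in place of gates the monocyte ratio was 0.068. In the fibroblast marker gate the summed level was 4901 against 2741 CPM, a log2 ratio of -0.84 (-0.92 to -0.76), and 1 of 5 members was past the rule, H2-DMa at -1.65, against 4.52% of 5337 genes. There 5 of 82 cells held 48.5% of the molecules in the pool labelled wild-type, and the medians over single cells were 26.2 and 24.9 per 10000, close to the T cell values. Macrophage markers in that gate summed to 1005 and 552 CPM. Without its cells that passed a second list the ratio was -0.17.

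Over all kept cells the summed genes stood at 25283 CPM in the pool labelled wild-type and 20280 in the pool labelled Saa3-/-, a log2 ratio of -0.32 (-0.33 to -0.31). H2-DMb2 (0.62), H2-Ob (0.60), H2-Oa (0.44) and Ciita (0.28) had ratios above 0 there, and the other 6 members had ratios below 0. Where the molecules came from differed: macrophages gave 52.3% of the members' molecules from 24.0% of the cells in the first pool and 43.1% from 16.9% in the second, and B cells 4.88% from 6.12% of the cells and 16% from 13.5%. Dendritic cells gave 20.0% in each, from 5.76% and 4.13% of the cells. Over the 15 groups of cells present in both pools, weighted by their molecules in the pool labelled wild-type, the levels of that pool gave 25147 CPM and those of the pool labelled Saa3-/- 22958. Weighted by the molecules of the pool labelled Saa3-/-, they gave 22705 and 20280. In a sum over all cells, fewer cells of a type and less RNA per cell cannot be told apart.

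Cells in no gate (82 and 106) held 33735 and 22477 CPM and 8.50% and 11.3% of the members' molecules. They too spread over 2 ranges, with 24 of 82 and 28 of 106 at or above 200 per 10000 and medians of 39.7 and 36.6. Macrophage markers summed to 1755 and 1810 CPM in them and monocyte markers to 846 and 699.

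The other genes of the pathway were read from 8 lists of 53 genes, of which 48 were analysed. Between the pools, 2 of 37 with enough molecules were past the 2-fold rule in macrophages, against 1.86% of all genes tested, with a median log2 ratio of 0.10: Irf4, a lymphoid and dendritic transcription factor gene, at 1.08 and Arl14ep, linked to class II export, at -1.40. Irf4 rested on 25 and 26 molecules there and Arl14ep on 45 and 8, both just over the minimum of 50. In dendritic cells 2 of 29 were past the rule, against 5.12%: the cathepsin gene Ctsb at -1.46 and H2-Eb2, a second E beta gene, at -1.49. Ctsb stood at 1910 and 692 CPM in dendritic cells and at 5800 and 7320 in macrophages. Macrophage markers in the dendritic cell gate summed to 2350 CPM in the pool labelled wild-type and 1104 in the pool labelled Saa3-/-, and their part in the Ctsb ratio was not tested. In B cells 0 of 28 were past the rule, against 3.83%. Against macrophages, dendritic cells had 5 of 39 higher by the rule (Irf8, Jak2, Cst3, Cd80 and H2-Eb2), against 3.62% of all genes tested, and 5 lower (Ctsl, Ctsb, Ctsd, Lgmn and March8), against 6.95%. B cells had 5 of 39 higher (Rfx5, Irf4, Jak2, Ctla4 and H2-Eb2), against 9.02%. They had 11 lower (Spi1, Ctss, Ctsl, Ctsb, Ctsd, Lgmn, Cst3, March8, Ap1s2, Havcr2 and Cd44), against 11.0%. Of the 7 analysed genes on the list of endosomal proteolysis and reduction, 4 were lower in dendritic cells, beside that share of 6.95%. In B cells 6 were lower, Cst3 among them, beside 11.0%. Ifi30, also on that list, was not among the gene columns. Ctss, which encodes cathepsin S, the protease that trims the invariant chain in antigen-presenting cells, stood at 3323 and 4607 CPM in macrophages, 1970 and 1649 in dendritic cells and 1107 and 1097 in B cells. Cst3, the gene of the inhibitor cystatin C, was higher in dendritic cells (11466 and 10380) than in macrophages (3299 and 3539). Of the 10 regulators, Irf4 was higher in B cells (129 and 226 CPM) than in macrophages (10.2 and 21.6), and Spi1, the gene of the myeloid factor PU.1, was lower in B cells (180 and 140) than in macrophages (442 and 397). Rfx5, a subunit of the factor that binds the X box, was higher in B cells (29.4 and 28.0 CPM) than in macrophages (9.79 and 5.81). It rested on 8 and 13 molecules in B cells and 24 and 7 in macrophages, just over the minimum of 50. Irf8, a dendritic and B cell transcription factor gene, was higher in dendritic cells (335 and 374) than in macrophages (157 and 146). H2-Eb2 was higher in dendritic cells (82.9 and 28.3 CPM) and B cells (77.2 and 79.8) than in macrophages (8.57 and 4.98). It rested on 46 and 9 molecules in dendritic cells, 21 and 37 in B cells and 21 and 6 in macrophages.

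Genes with the most similar pattern were sought over the 16 points of 8 gates and 2 pools, with the log2 level of the 10 genes summed as the measure. The highest Pearson correlations among 8174 genes were those of Cd83 (0.96), whose product protects class II from ubiquitination, Irf8 (0.95), Fgd2 (0.95), Erp29 (0.95), Unc93b1 (0.94), Plek (0.94) and Cd86 (0.94), a costimulatory ligand gene. Ly86, Ppfibp2 and Cd180 followed, at 0.93 each. Cd74 and the chains correlated with the sum at 1.00, of which they are most, Ciita at 0.95, H2-DMa at 0.96, H2-DMb1 at 0.95, and H2-DMb2, H2-Ob and H2-Oa at 0.81, 0.77 and 0.58. The points share 1 library and the contrast of dendritic cells, macrophages, B cells and monocytes with the 4 other types.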

How the data were processed

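The deposited tables hold counts of unique molecules per cell and gene, made with the BD Rhapsody WTA Analysis Pipeline 1.11.1 on GRCm38 with GENCODE M19, per the file headers; the submitters' processing notes name R 4.3.1 and Seurat 4.3.0. Intronic reads were counted, per the file headers, and whether strand was used is not given in the sources used here, so H2-Eb1, H2-DMa, H2-Oa and Ciita, which overlap genes on the other strand, could hold their reads. On the same strand, H2-DMa overlaps CR974462.3 and Cd74 overlaps Mir5107, and use of strand would not separate those reads. Another deposited table gave the sample tag of 2401 putative cells, of which 647 were undetermined and 11 were multiplets; the 2 count tables hold none of these.

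Cells over 25% mt- molecules were removed. Each cell took the marker list with the highest mean z-score (at least 0.5, capped at 5, at least 3 markers found; 2 for subsets). Doublets within a pool were not called; 374 cells passed a second list, and leaving them out is an alternative. Molecules were summed per gate and pool. A pool ratio used a pseudocount of 0.5 molecules. Intervals are exact (Poisson, Clopper-Pearson and conditional binomial) and cover counting error only. Scripts were tested on simulated data. Python 3.11.15, numpy 2.4.6, pandas 2.3.3, scipy 1.17.1, scanpy 1.11.5, leidenalg 0.10.2 and matplotlib 3.10.9 were used. Coordinates are from GENCODE M21 on GRCm38.

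Named genes were the members, the pathway genes past the 2-fold rule, the 10 genes most like the members over gates, and the 10 over macrophages; the 5 lowest over macrophages were added after the values were seen. The members and lists were chosen with earlier results of these data known.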

Additional observations from a re-analysis of the deposited data

How the results depend on the processing

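The calls between cell types held best: across 8 alternatives (other cell filters, gate margin, single-list cells, clusters, equal cell weights, thinning and TMM scaling), 24 of 24 counts stayed within 1.5 times, though with thinning 2 of the 5 dendritic cell calls were shared, and a 1.5-fold rule called 10. Between pools, the log2 ratio of the summed genes in macrophages, -0.05, was -0.088 with all deposited cells, -0.13 with a gate margin of 0.5, -0.19 with single-list cells, -0.10 thinned to 2000 molecules, -0.12 with TMM and -0.21 with clusters. In dendritic cells 0.01 became 0.092 with the margin, -0.052 with single-list cells, -0.034 with TMM and -0.16 with clusters. In B cells 0.15 became 0.075 with the margin, -0.082 with single-list cells, 0.035 with equal weights, 0.043 thinned and 0.23 with TMM. In monocytes -0.80 became -0.74 with all cells, -0.62 with the margin, -1.34 with single-list cells, -0.88 with equal weights and 0.068 with clusters, where H2-Eb1 reversed to 0.19. In the fibroblast marker gate -0.84 became -0.17 with single-list cells, -0.57 with equal weights, -0.54 thinned and -0.70 with clusters. The cause was not tested. The count of members 2-fold apart in dendritic cells rose from 0 to 1 with the margin, with single-list cells and with a 1.5-fold rule, and in B cells to 1 with a 1.5-fold rule. In monocytes 1 became 3 with single-list cells, 2 with equal weights, 2 thinned, 0 with clusters and 4 at 1.5-fold. In the fibroblast marker gate 1 became 2 with all cells, 0 with single-list cells, equal weights, thinning or clusters, 5 at 1.5-fold and 3 with a minimum of 20 molecules. No paired analysis was possible because each genotype was 1 pool. H2-Oa, H2-Ob, H2-DMb1, H2-DMb2 and Ciita rest on few molecules in some gates, and depth limits their ratios.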
